A study of Mus musculus with 8 samples.

Results

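The genes described here encode 10 enzymes that make pyrimidine nucleotides and the deoxynucleotides used to copy DNA: Cad, Dhodh, Umps and Ctps2 on the route to UTP and CTP, and Rrm1, Rrm2, Tk1, Dut, Dctd and Dtymk on the route to DNA precursors. They were taken by symbol from a table of 35072 genes; each symbol matched 1 row, and all 10 were among the 13299 genes with enough counts to test. The cells were wildtype mouse CD8 T cells from spleen and lymph nodes, naive at the start. Activation lasted 18 h in every sample and used interleukin-12, a cytokine that favours cytotoxic differentiation, beside anti-CD3 and anti-CD28. For the next 24 h, 4 samples received 2 mM formate and 4 received PBS, the vehicle. No label gives the age or sex of the mice, or says whether the 4 libraries of a group came from separate animals. Unpaired p-values therefore reflect library-to-library spread, which may be technical. Where libraries were paired by title code, p-values reflect the spread of differences within pairs, which may be technical too.

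Resting T cells hold small nucleotide pools, and an activated T cell must enlarge them before it can replicate its genome. In the de novo pathway CAD, a single polypeptide with several activities, joins carbamoyl phosphate to aspartate and closes the ring; DHODH of the inner mitochondrial membrane oxidises dihydroorotate; UMPS completes UMP; and the CTP synthases CTPS1 and CTPS2 aminate UTP to CTP. Ribonucleotide reductase, made of the catalytic R1 subunit (Rrm1) and the radical-bearing R2 subunit (Rrm2), then reduces ribonucleotides, while DCTD, DUT, TK1 and DTYMK feed and guard the supply of thymidine nucleotides. Formate enters cells' folate pool as a one-carbon unit, and thymidylate synthase takes its methyl group from that pool. The comparison asks whether formate changes their transcript levels.

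Libraries held between 29361986 and 41393093 estimated counts, and the members between 643 and 24749 counts in any library, so counting error is small beside the spread between libraries. The libraries carry codes in their titles: S2, S8, S11 and S14 for formate and S1, S7, S10 and S13 for PBS. Neighbouring codes each join 1 formate with 1 PBS library, but no label says that they belong together. The fixed CD8 T cell markers summed to between 1506 and 1544 CPM (counts scaled to library size, TMM-normalised) in formate libraries and between 1463 and 1693 CPM in PBS libraries. Of 10 myeloid and dendritic markers, 1 exceeded 1 CPM on average. The B cell sum, which lay between 160.1 and 175 CPM with formate and between 169.9 and 181 CPM with PBS, came mostly from Ighm (129 to 165 CPM over the libraries). Hba-a1, Pf4 and Cdh5, markers of red cells, platelets and endothelium, were at 0 in every library. Other markers in the same lists were detected, with Pecam1 (endothelium) at 16.2 to 23.1 CPM and Itga2b (platelets) at 0.595 to 1.88 CPM. Alas2 (red cells) reached at most 0.390 CPM and Ppbp (platelets) at most 0.146 CPM.

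Promoter stretches of Cad, Rrm1 and Rrm2 are shown because Cad and Rrm1 carry the formate results below and Rrm2 encodes the partner subunit of Rrm1. Each is the 150 bases before the RefSeq transcription start, 5′ to 3′ on the gene's strand (RefSeq, GRCm38.p6): chr5:31054630-31054779 for Cad, chr7:102441545-102441694 for Rrm1 and chr12:24708104-24708253 for Rrm2, all on the plus strand. Capitals mark matches on either strand to CCAAT, the NF-Y box, to GGGCGG, the GC box of SP factors, or to TTCCCGC, an E2F-type element.
Cad: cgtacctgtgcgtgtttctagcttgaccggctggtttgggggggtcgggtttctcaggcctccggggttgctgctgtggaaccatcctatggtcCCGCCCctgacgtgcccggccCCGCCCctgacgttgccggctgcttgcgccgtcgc
Rrm1: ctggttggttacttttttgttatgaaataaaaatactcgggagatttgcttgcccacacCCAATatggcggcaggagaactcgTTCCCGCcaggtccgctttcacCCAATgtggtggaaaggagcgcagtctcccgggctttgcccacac
Rrm2: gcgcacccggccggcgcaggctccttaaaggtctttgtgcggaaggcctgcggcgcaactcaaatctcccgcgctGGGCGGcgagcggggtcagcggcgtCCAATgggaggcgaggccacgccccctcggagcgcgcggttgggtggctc

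The Cad stretch holds 2 GC boxes and no match to the other motifs, the Rrm1 stretch 2 CCAAT boxes and 1 TTCCCGC, and the Rrm2 stretch 1 CCAAT box and 1 GC box. Among 32843 RefSeq promoter windows of the same length, 24.5% hold CCAAT, 28.6% hold GGGCGG and 2.59% hold TTCCCGC, counting either strand; these motifs do not overlap one another in the printed stretches. A further motif searched, CACGTG (the E-box bound by MYC), occurs in 4.3% of the windows and in none of these 3. Bases after the transcription start were not searched. The matches describe the letters only; binding was not measured.

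Most of the 10 genes had formate levels close to their PBS levels, and the clearest differences, in Cad and Rrm1, were log2 changes of -0.21 and -0.18 that passed a test only when libraries were paired by title code. In the comparison of all 4 formate with all 4 PBS libraries, none of the 10 genes passed (edgeR's quasi-likelihood test with p adjusted over all tested genes by Benjamini-Hochberg, threshold 0.05; smallest adjusted p among them 0.998). None of them had an unadjusted p under 0.05, and DESeq2 called 0 of the 10 as well. The edgeR test called 0.00752% of all tested genes, which is 1 gene. The ranges of formate and PBS libraries overlapped for all 10, against 4.29% of tested genes whose ranges were apart (1.85% with formate lower). When neighbouring title codes were entered as a block, Cad and Rrm1 passed as lower with formate and the other 8 did not pass, so 2 of 10 were lower where this fit called 7.52% of all tested genes lower and 12.9% in either direction. On simulated counts, 22 of 165 calls of the block fit were false, a larger share than the threshold of 0.05. With GC offsets added to the block, a correction for trends with transcript GC content, the same 2 genes passed, and 10.3% of all tested genes were called lower and 2.71% higher. The median log2 change of the 10 was -0.05 in both fits, and that of all tested genes -0.01 unpaired and -0.003 with the block.

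**Figure D1:**
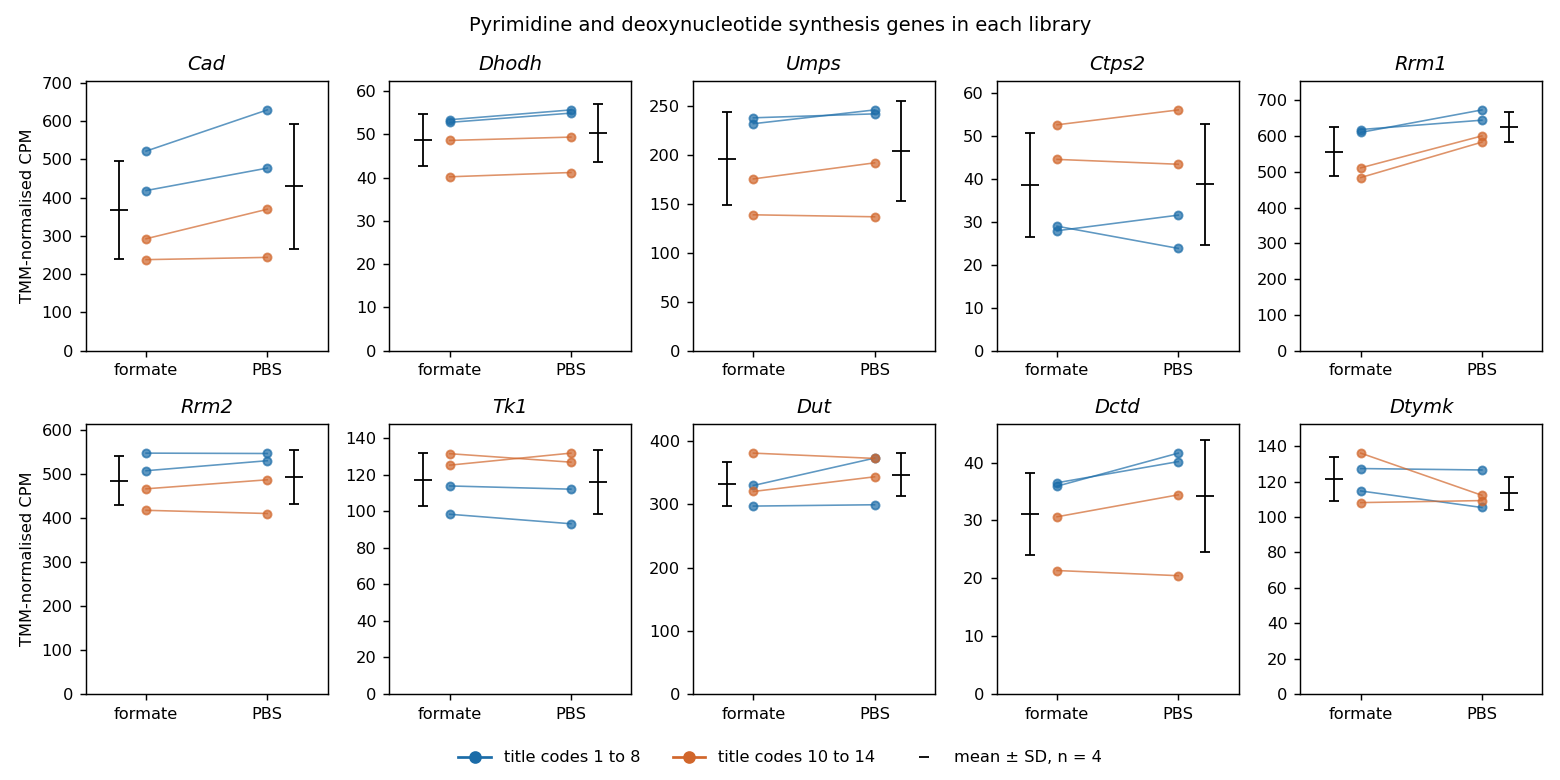
TMM-normalised CPM of the 10 genes in each library, formate left and PBS right; lines join neighbouring title codes, colours give the 2 runs of codes, and black bars are mean ± SD (n = 4). Cad, Dhodh and Rrm1 slope upward to PBS in all 4 lines, and for Cad, Umps and Ctps2 the distance between the colours exceeds that between the groups.

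Of the de novo genes, Cad (chromosome 5, 31054780 to 31078479, plus strand; GENCODE M21, GRCm38) had 522, 419, 238 and 293 CPM in formate libraries S2, S8, S11 and S14, against 629, 477, 244 and 369.6 CPM in PBS libraries S1, S7, S10 and S13. The formate library was the lower one beside every neighbour, by little for S11 and S10, while the groups as wholes overlapped broadly. Means were 368 ± 127 CPM with formate and 429.9 ± 163 CPM with PBS (SD, n = 4 each). The unpaired log2 change was -0.23 (SE 0.32, 95% interval -0.95 to 0.50; edgeR adjusted p = 0.998). With the block it was -0.21 (SE 0.05, edgeR adjusted p = 0.0165), a fold of 0.865 with an interval from 0.802 to 0.933. This call was lost without the pair S1 and S2 (adjusted p = 0.137), S7 and S8 (0.0648) or S13 and S14 (0.0973), and kept without S10 and S11 (0.00963), where the change was -0.27. With library size as the sole scaling, the edgeR adjusted p of the block fit was 0.04999, just under the threshold. Leaving out PBS library S1 alone turned the unpaired change to 0.02.

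Dhodh (chromosome 8, 109591343 to 109608673, minus strand), whose product passes electrons to the respiratory chain, had 52.8, 53.4, 40.2 and 48.6 CPM with formate (S2, S8, S11, S14), against 54.9, 55.7, 41.2 and 49.4 CPM with PBS (S1, S7, S10, S13). It too was below its neighbour in all 4 pairs, with log2 differences between -0.06 and -0.02, and did not pass in either fit (log2 change -0.04 in both; edgeR adjusted p = 0.615 with the block). Being lower in all 4 pairs was common, holding for 19.5% of tested genes (35.5% lower or higher in all 4) and for 3 of these 10. Umps (chromosome 16, 33954782 to 33967038, minus strand), which makes UMP from orotate, had 238, 232, 139 and 176 CPM with formate and 242, 246, 137 and 192 CPM with PBS in the same order of libraries. Its values separated into a high set (codes 1 to 8) and a low set (codes 10 to 14) with little left between the groups: the log2 change with the block was -0.05 (SE 0.04, edgeR adjusted p = 0.452). The 3 genes of UMP synthesis therefore differed in their calls, with Cad lower in the block fit and Dhodh and Umps not passing; the difference between them was not tested.

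Ctps2 (chromosome X, 162901238 to 163032508, plus strand), the less abundant CTP synthase gene, had 28.9, 27.9, 52.5 and 44.5 CPM with formate and 23.8, 31.5, 56.0 and 43.3 CPM with PBS. It was higher with formate in 2 of 4 pairs, and its change was -0.01 (SE 0.29) unpaired and 0.01 (SE 0.07, edgeR adjusted p = 0.931) with the block, so its sign depends on the fit. Its sets ran opposite to those of Cad and Umps, with the codes 10 to 14 high. The other CTP synthase gene, Ctps1, which lies outside the 10, had 204, 188, 111 and 136 CPM with formate and 207, 207, 121 and 156 CPM with PBS, lower in 4 of 4 pairs. It did not pass without or with the block (log2 change -0.12, SE 0.04, edgeR adjusted p = 0.0869) but passed with the block and GC offsets (-0.15, adjusted p = 0.0352). Scaled by transcript length, the Ctps1 level was 8.24, 7.86, 2.46 and 3.59 times that of Ctps2 in formate libraries and 10.2, 7.67, 2.52 and 4.22 times in PBS libraries. The ratio differed between the runs of title codes and overlapped between formate and PBS.

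Among the reductase genes, Rrm1 (chromosome 7, 102441695 to 102469771, plus strand) had 618, 610.1, 484 and 511 CPM with formate, against 644, 673, 583 and 600.2 CPM with PBS (libraries in the order S2, S8, S11, S14 and S1, S7, S10, S13). All 4 formate libraries lay below their neighbours, and S2 and S8 lay above PBS libraries S10 and S13. Means were 556 ± 68.3 CPM with formate and 625 ± 41.0 CPM with PBS (SD, n = 4 each). The log2 change was -0.17 (SE 0.11, 95% interval -0.41 to 0.07) unpaired and -0.18 (SE 0.05, edgeR adjusted p = 0.0272) with the block, a fold of 0.886 with an interval from 0.825 to 0.951. Without any 1 of the 4 pairs the blocked call was lost (adjusted p between 0.0662 and 0.107, change between -0.21 and -0.14), and with library size as the sole scaling it was 0.0558.

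Rrm2 (chromosome 12, 24708241 to 24714146, plus strand), the subunit gene whose expression follows S phase, had 508, 548, 418 and 467 CPM with formate and 531, 547, 410.4 and 487 CPM with PBS. The 2 groups covered nearly the same range, with 2 of 4 pairs higher. Its log2 change with the block was -0.02 (SE 0.04, edgeR adjusted p = 0.767), and the interval of its fold ran from 0.921 to 1.05. The Rrm2 level divided by the Rrm1 level, both per transcript length, was 3.90, 4.27, 4.10 and 4.34 in formate libraries and 3.91, 3.86, 3.35 and 3.86 in PBS libraries, averaging 4.15 ± 0.193 with formate and 3.75 ± 0.267 with PBS (SD, n = 4 each). All formate values but that of S2 lay above all PBS values, and the PBS value of S10 (3.35) lay below the others. The difference in this ratio was not tested. The size of the ratio rests on the transcript lengths chosen, whereas its comparison between libraries does not. Rrm2b, the R2 subunit used outside S phase, did not pass (16.2 ± 2.58 CPM with formate, 14.8 ± 1.56 CPM with PBS; log2 change with the block 0.12, edgeR adjusted p = 0.266); with GC offsets its change was -0.04.

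**Figure D2:**
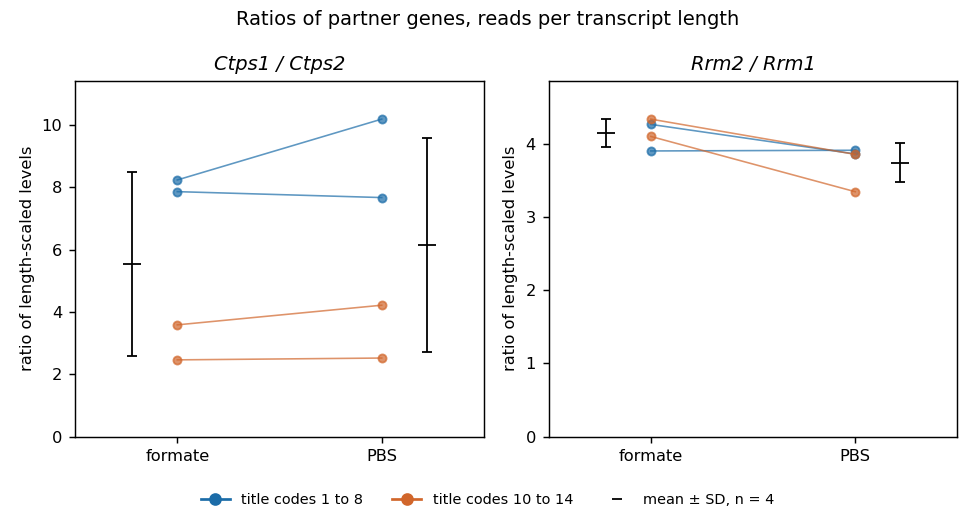
Ratio of Ctps1 to Ctps2 (left) and of Rrm2 to Rrm1 (right), each level divided by the median length of the gene's protein-coding transcripts, per library; lines join neighbouring title codes and black bars are mean ± SD (n = 4). Ctps1 to Ctps2 runs from 2.46 to 10.2 and follows the colours, while Rrm2 to Rrm1 averages 4.15 with formate and 3.75 with PBS, a difference that was not tested.

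The 4 genes that supply and guard thymidine nucleotides did not pass in either fit. Dctd (chromosome 8, 48099092 to 48153233, plus strand), which deaminates dCMP to dUMP, had 35.9, 36.5, 21.3 and 30.6 CPM with formate and 41.6, 40.2, 20.4 and 34.4 CPM with PBS. It was lower in 3 of 4 pairs, the exception being S11 beside S10 (log2 change with the block -0.12, SE 0.06, edgeR adjusted p = 0.221). Dut (chromosome 2, 125247190 to 125258608, plus strand), which hydrolyses dUTP so that uracil is kept out of DNA, had 297, 330.1, 321 and 381 CPM with formate and 299.5, 373, 344 and 373 CPM with PBS. The groups overlapped and the change was -0.06 (SE 0.05, edgeR adjusted p = 0.40) with the block.

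Tk1 (chromosome 11, 117815526 to 117826092, minus strand), the cytosolic thymidine kinase of salvage, had 98.4, 114, 125 and 132 CPM with formate and 93.2, 112, 132 and 127 CPM with PBS, with a change of 0.02 (SE 0.04, edgeR adjusted p = 0.818) in the block fit. Dtymk (chromosome 1, 93792576 to 93801934, minus strand), which phosphorylates dTMP to dTDP, had 115, 127, 108 and 136 CPM with formate and 105, 127, 109 and 112 CPM with PBS. It was the highest of the 10 changes, 0.10 in both fits (SE 0.05 and edgeR adjusted p = 0.218 with the block), and most of that difference came from S14 beside S13. Tyms, thymidylate synthase itself and the user of the one-carbon unit, had 146, 147, 116 and 145 CPM with formate and 135, 145, 106 and 131 CPM with PBS. It was higher in 4 of 4 pairs and did not pass (log2 change with the block 0.10, SE 0.04, edgeR adjusted p = 0.150).

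**Figure D3:**
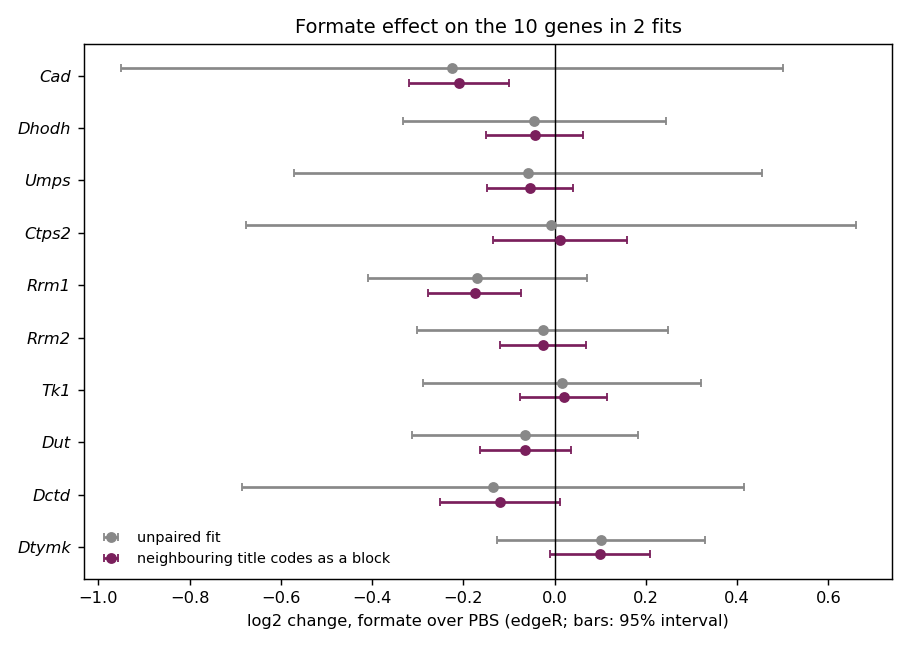
Log2 change of the 10 genes, formate over PBS, in the unpaired edgeR fit and in the fit with neighbouring title codes as a block; bars are 95% intervals. In the unpaired fit all 10 intervals include 0, and in the block fit those of Cad and Rrm1 lie below it.

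For 9 of the 10 genes the 2 runs of title codes differed more than formate and PBS; the exception was Dtymk, with a log2 difference of -0.03 between codes 10 to 14 and 1 to 8 and of 0.10 between formate and PBS. For 8 of the 10, all libraries of codes 10 to 14 lay on 1 side of all libraries of codes 1 to 8, which was true of 33.9% of tested genes. What the runs stand for is not given in the labels, and each run holds 2 formate and 2 PBS libraries. In an edgeR fit with treatment as a term, chosen after the data were seen, 8 of the 10 passed between the runs (6 lower and 2 higher in codes 10 to 14), where 39.8% of all tested genes passed. The log2 difference was -0.84 for Cad (SE 0.15, edgeR adjusted p = 0.00297) and 0.81 for Ctps2 (SE 0.11, 0.00143). That fit had no pair term and counted the 4 libraries of a run as independent. If neighbouring title codes belong together, each run holds fewer independent units, and these SE and p-values may be too small. Cad averaged 286 ± 60.9 CPM in codes 10 to 14 and 512 ± 89.0 CPM in codes 1 to 8 (SD, n = 4 each), and Umps 161 ± 27.4 and 239.8 ± 6.01 CPM in the same order. Dctd, Dhodh, Rrm1 and Rrm2 were also lower in codes 10 to 14. Ctps2 went the other way, with 49.1 ± 6.15 CPM in codes 10 to 14 and 28.0 ± 3.21 CPM in codes 1 to 8, as did Tk1 with 129 ± 3.30 and 104 ± 10.2 CPM. Dut and Dtymk overlapped between the runs. Of the 7 sums of cell type markers, 2 were also apart between the runs. The NK and innate lymphoid markers summed to between 59.9 and 107 CPM in codes 10 to 14 and between 31.2 and 40.1 CPM in codes 1 to 8, mostly from Il7r, which T cells express too, while Ncr1 and Klrb1c were at most 0.066 CPM. The stromal markers, mostly Pecam1, summed to between 19.6 and 23.9 CPM in codes 10 to 14 and between 17.3 and 19.0 CPM in codes 1 to 8. The part of these shifts in the differences between the runs was not tested.

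The formate change of the 10 genes had the same sign in both runs for 9 genes and differed for Ctps2. Some of these changes were far smaller than their SE in codes 10 to 14, such as 0.0036 (SE 0.10) for Tk1 and -0.0076 (SE 0.13) for Rrm2. Their signs say little, and the share of all tested genes with like signs was not examined. No interaction between treatment and run passed for any of the 10 (edgeR, smallest adjusted p over the members 0.9999; 0% of all tested genes passed, and no member had an unadjusted p under 0.05). For Cad the change was -0.20 in codes 10 to 14 and -0.24 in codes 1 to 8, and for Rrm1 -0.24 and -0.10 in the same order, each from 2 formate and 2 PBS libraries and none past the threshold (edgeR adjusted p between 0.911 and 0.954). With the run entered as a term in place of the pairs, Cad had -0.22 (SE 0.15, edgeR adjusted p = 0.548) and Rrm1 -0.18 (SE 0.065, 0.328).

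Per transcript length, on the TPM scale, the 10 genes spanned a wide range of levels. Rrm2 was highest with 747 ± 98.1 in formate libraries and 752 ± 119 in PBS libraries (SD, n = 4 each), followed by Dut with 289 ± 23.2 and 298 ± 25.4. Rrm1 (180.2 ± 26.8 with formate, 199.9 ± 19.7 with PBS), Dtymk (151 ± 13.7 and 139 ± 11.4) and Tk1 (105 ± 9.95 and 102 ± 11.6) came next. Cad (73.6 ± 27.8 and 85.4 ± 36.1) and Umps (73.2 ± 19.4 and 75.5 ± 21.3) did not differ from each other beyond their spread, and their order turned when the longest transcript was used in place of the median length. Dhodh (43.4 ± 6.21 and 44.3 ± 7.48), Dctd (28.1 ± 6.83 and 30.6 ± 9.64) and Ctps2 (15.7 ± 4.61 and 15.4 ± 4.99) were the lowest. The single values moved with the length, that of Rrm2 averaging 749 over the 8 libraries with the median and 429 with the longest transcript, while the order of the other members was kept.

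Of 42 further genes of the pathway found in the table, 38 were tested, 0 passed unpaired (also 0 with DESeq2, and 0 at an unadjusted p under 0.05), and with the block 3 rose, 2 fell and 33 did not pass, beside 5.35% higher and 7.52% lower over all tested genes. The median log2 change of the 38 was -0.02 unpaired and -0.01 with the block. In salvage and transport, 2 of 9 rose and 1 fell. Uck2, the uridine-cytidine kinase, had 308, 311, 239 and 267 CPM with formate and 346, 346, 269 and 314 CPM with PBS, lower in 4 of 4 pairs (log2 change with the block -0.18, SE 0.04, edgeR adjusted p = 0.0134). This call was lost without S1 and S2 (0.0891), S7 and S8 (0.0539) or S13 and S14 (0.0617).

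The mitochondrial pyrimidine nucleotide carriers Slc25a33 and Slc25a36 rose in the block fit. Slc25a33 had 31.3, 32.3, 23.4 and 29.1 CPM with formate and 25.4, 31.6, 15.0 and 23.0 CPM with PBS (log2 change 0.32, SE 0.08, edgeR adjusted p = 0.0214), a call kept without S7 and S8 and lost without any other pair (0.0753 to 0.111). Slc25a36 had 39.1, 37.2, 65.9 and 46.5 CPM with formate and 30.6, 34.6, 51.7 and 42.8 CPM with PBS (0.23, SE 0.06, edgeR adjusted p = 0.0209). With GC offsets its change was 0.10 and did not pass (adjusted p = 0.297), and the call was lost without S1 and S2 (0.133) or S10 and S11 (0.0876). The share of counts on the mitochondrial chromosome was between 0.560% and 0.906% in formate libraries and between 0.414% and 0.566% in PBS libraries, higher in 4 of 4 pairs; its part in these results was not tested.

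Of 9 CTP synthase and nucleotide kinase genes, 1 rose: Nme2, a nucleoside diphosphate kinase, had 432, 536, 666 and 678 CPM with formate and 401, 497, 597 and 502 CPM with PBS (log2 change with the block 0.20, SE 0.06, edgeR adjusted p = 0.0273), and the call was lost without any 1 pair (0.0654 to 0.138). Nme2 is similar in sequence to Nme1, and how reads were divided between them was not examined. Cmpk1, the UMP-CMP kinase, did not pass (74.7 ± 4.59 CPM with formate, 70.3 ± 5.01 CPM with PBS; 0.09, adjusted p = 0.254), and its change was -0.08 with GC offsets. Of 10 tested genes of breakdown and pool control, 1 fell: Samhd1, the dNTP hydrolase that counters ribonucleotide reductase, had 302, 306, 464 and 364 CPM with formate and 329, 335, 528 and 438 CPM with PBS (-0.18, SE 0.05, edgeR adjusted p = 0.0200). That call was kept without S10 and S11 (0.0359) and lost without any other pair (0.0603 to 0.0934) or with library size as the sole scaling (0.0509). None of the 10 thymidylate and reductase partner genes passed, although Tyms and Txn1 had an unadjusted p under 0.05; Dck, the deoxycytidine kinase, had 90.0 ± 4.11 CPM with formate and 93.2 ± 5.28 CPM with PBS (-0.05, adjusted p = 0.507). Among untested genes, Cda and Dpys were at 0 in all libraries, and Dpyd was at most 0.0675 CPM.

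**Figure D4:**
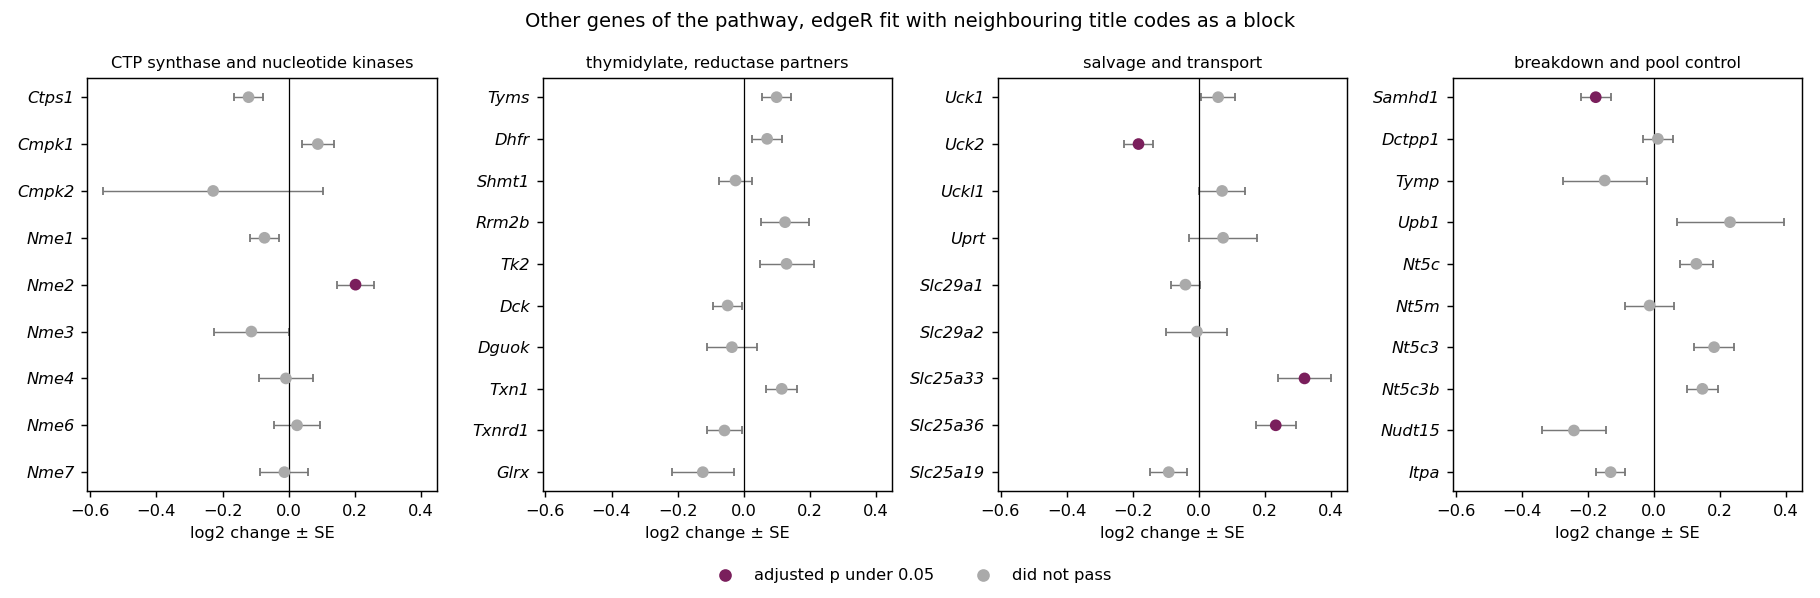
Log2 change with SE of the 38 tested genes of the rest of the pathway in the edgeR fit with neighbouring title codes as a block, in 4 lists; filled purple points had an adjusted p under 0.05. Nme2, Slc25a33 and Slc25a36 stand right of 0, Uck2 and Samhd1 left of it, and the other 33 did not pass.

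Transcripts of Rrm2, Tk1 and several other members are known to follow S phase, and many cell cycle genes were lower with formate in the block fit. In that fit Rrm2 and Tk1 themselves had log2 changes of -0.02 and 0.02 and did not pass. The summed level of 26 S phase genes, which hold none of the 10, was between 5542 and 6378 CPM in formate libraries and between 6203 and 6863 CPM in PBS libraries, lower in 4 of 4 pairs. Of the 26, 11 fell and 2 rose with the block (42.3% lower, beside 7.52% of all tested genes; median log2 change -0.12), and between 2 and 9 fell when 1 pair was left out. The 18 G2/M genes summed to between 3606 and 4144 CPM with formate and between 4081 and 4311 CPM with PBS. With the block 7 fell (38.9%, beside 7.52% of all tested genes), and 4 to 7 fell without 1 pair. Calls over all tested genes dropped too when a pair was left out. Genes called lower numbered 177 of 13228 without S1 and S2 and 278 of 13149 without S13 and S14. They numbered 419 of 13500 without S7 and S8 and 815 of 13312 without S10 and S11, beside 1000 of 13299 with all pairs. None of the genes of either list passed unpaired. In bulk RNA, fewer cells in a phase and less RNA per cell cannot be told apart, and the part of these shifts in the Cad and Rrm1 results was not tested.

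By their profile over the 8 libraries, the genes most like the mean of the 10 standardised members were Trmt5 (a tRNA methyltransferase), Snrpb (a spliceosomal core protein), Npm3 (a nucleolar chaperone), Mrpl16 (a mitochondrial ribosomal protein) and Llph, with Pearson r between 0.979 and 0.993 among 9154 candidates. The runs of codes overlapped for each of these 5 genes, with S14 above S2, and r describes likeness in these 8 libraries only. The members do not share 1 profile: Cad had r = 0.950 with Umps but -0.954 with Ctps2 and -0.904 with Tk1. Their mean joins opposite profiles and need not resemble any single member.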

How the data were processed

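Reads were paired, 58 bp long. Per the submitters' processing notes, kallisto, Trimmomatic and MultiQC were used, with mm10 or GRCm38 as build. Versions, strand setting, filters and the transcriptome release: not given in the sources used here. Estimated counts per gene were deposited for each library, without normalisation; of the values above 0, 56.7% were fractional (over 1e-06 from a whole number), and values were rounded before testing. Unnamed genes (8884) were kept under their identifiers. Within 0.001, counts of Cad, Umps and Dut were whole in all libraries, while those of Dhodh, Tk1 and Dtymk were not whole in any. Umps, Ctps2, Rrm1 and Tk1 overlap other annotated genes.

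Counts were tested with edgeR 4.0.16 (TMM, filterByExpr, robust quasi-likelihood, Benjamini-Hochberg) in R 4.3.3; DESeq2 1.42.0 was an alternative. SE is the log2 change over the root of the F statistic. Neighbouring title codes were used as a block because deviations from group means correlated above 0.1 in every pair. Correlations were 0.653 for S1 and S2, 0.369 for S7 and S8, 0.656 for S10 and S11, and 0.370 for S13 and S14. The best library outside the pair reached 0.270 to 0.373, which is also above 0.1. For S7 it was S2 at 0.373, above the 0.369 with S8, so these correlations do not single out every pair. This pairing comes from the codes, not from a stated design. GC offsets removed a per-library spline (5 df) of log2 CPM on transcript GC content. Library pairs of a group differed by more than sampling noise (chi-square per degree of freedom at least 20.3). On simulated counts over 13299 genes the unpaired test recovered 39 of 50 genes changed by 1.5 and 0 of 50 changed by 0.3 on the log2 scale, and the block fit 44 and 24, with 22 false among 165 calls.

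The members, lists and settings were chosen with earlier results of these data known. Named genes are the 10 members, pathway genes called in either fit, and 6 others (Ctps1, Tyms, Rrm2b, Dck, Samhd1, Cmpk1); like profiles needed a symbol and a mean of at least 5 CPM. Marker lists for CD4 T, NK and innate lymphoid, and stromal cells summed to 9.30 to 16.0, 31.2 to 107 and 17.4 to 22.6 CPM with formate, and 11.1 to 17.6, 36.7 to 102 and 17.3 to 23.9 CPM with PBS. Erythroid and platelet markers summed to 1.06 to 1.96 CPM with formate and 0.703 to 1.11 CPM with PBS, and the 10 myeloid and dendritic markers to 5.70 to 11.9 and 6.55 to 11.4 CPM.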

Additional observations from a re-analysis of the deposited data

Results flagged for a closer look

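Tyms in formate libraries was tested for a library standing apart: S11, at 116 CPM, lay away from the other 3 (145 to 147 CPM), with a gap of 0.948 of the group's range, above Dixon's 95% critical value for 4 samples. The mitochondrial share of PBS libraries was marked in the same way, with a gap of 0.841 of the range, because S13 had 0.566% and the others 0.414% to 0.438%. These are 2 of 42 groups examined, and chance marks about 1 in 20 groups.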

How the results depend on the processing

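The number of genes called, 1 in the unpaired fit, was 21 with DESeq2 and 0 within title codes 1 to 8 or within codes 10 to 14, and leaving out 1 library gave 0 to 1. With the replicate block it was 1711 with 2 members and 5 pathway genes. With DESeq2 and the block these counts were 1574, 2 and 5; with GC offsets 1730, 2 and 6; with RLE size factors 1738, 2 and 6; with upper quartile scaling 1568, 2 and 7; with library size only 1587, 1 and 8. Without S1 and S2 the blocked counts were 337, 0 and 0, without S7 and S8 722, 0 and 2, without S10 and S11 1371, 1 and 4, and without S13 and S14 502, 0 and 1. The unpaired counts of members and pathway genes were 0 under every other setting, also without any 1 library.

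GC offsets moved the blocked split of all calls to 360 higher and 1370 lower, library size only to 1048 and 539, and upper quartile scaling to 832 and 736, against 711 and 1000. Some unpaired changes turned sign when 1 library was left out, over ranges of -0.444 to 0.0153 for Cad, -0.126 to 0.0326 for Dhodh, -0.207 to 0.0693 for Umps, -0.195 to 0.231 for Ctps2, -0.101 to 0.0345 for Rrm2, -0.0775 to 0.0895 for Tk1 and -0.314 to 0.003 for Dctd. Rrm2 also turned with library size only (0.0082, and 0.0114 with the block). The Ctps2 change, -0.01 unpaired, was 0.0134 with upper quartile scaling, 0.0334 with library size only, 0.0366 within codes 1 to 8 and 0.003 with the run as a term. In block fits of Ctps2 it was 0.0121 alone, 0.0054 with DESeq2 or RLE factors, 0.0331 with upper quartile scaling, 0.0487 with library size only, 0.0493 without S10 and S11, 0.004 without S13 and S14 and 0.074 without S7 and S8, but -0.056 with GC offsets and -0.0646 without S1 and S2. No sign turned for Rrm1, Dut or Dtymk under any setting run. The causes were not tested.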
